A study of Mus musculus with 72 samples.

Results

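The genes described here are 28 that make cholesterol, sense its level or carry it, and they were chosen by symbol from the first column of 7 count tables of mouse RNA-Seq. They were 28 of the 24107 gene symbols that all 7 tables hold, and each was found in each table. They fall into 8 genes of the mevalonate arm, 12 of the sterol arm, 4 of sterol sensing and 4 of sterol transport. The mevalonate and sterol arms together hold 20 enzymes. The rule uses no expression value, but the genes were chosen with earlier results of these data known.

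Cholesterol is built from acetyl-CoA. The mevalonate arm makes isoprenoid diphosphates, which also serve protein prenylation and other products, and the sterol arm joins them into squalene, closes the rings and trims lanosterol to cholesterol. When sterols in the endoplasmic reticulum run low, Scap escorts the Srebf2 product to the Golgi, where it is cut into an active transcription factor that raises the genes of the pathway. Insig1 and Insig2 hold Scap back when sterols are plentiful. The liver supplies cholesterol to the blood and to bile, and steroid-making cells of the ovary and testis use cholesterol as the precursor of their hormones. Testicular germ cells make sterol intermediates of the pathway in large amounts.

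The study compared male mice conceived by IVF with males conceived by mating (naturals), and then the offspring of both. Naturals came from CF-1 females in their own cycle mated with SJL/B6 males heterozygous for GFP. For IVF, eggs of superovulated CF-1 females were fertilized in vitro with sperm of SJL/B6 GFP-heterozygous males, cultured to blastocysts and transferred to pseudopregnant females, so that the IVF groups carry superovulation, culture and transfer together. F1 testes were taken at E18.5 (4 naturals, 6 IVF), 12 weeks (5 and 5) and 39 weeks (4 and 6). F2 animals were sired by naturals or IVF-conceived males mated with wild-type CF-1 females, and neither F2 group was itself conceived in vitro. At 12 weeks, F2 testes (5 with natural and 7 with IVF sires), male livers (5 and 5), female livers (5 and 6) and ovaries (4 and 5) were taken. In the F2, "natural" and "IVF" below name the conception of the sire. The study's methods give the F1 testis animals as coming from different litters. The labels do not tie a library to its litter or sire, so F2 animals of a group may share either, and p-values measure the spread between these libraries. The cycle stage of the females is not given in the sources used here.

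Total counts ranged from 543745 to 90441392 over the 72 libraries, and 8 libraries held under 5000000 counts: the 4 natural testes at E18.5, male liver IVF 2 and IVF 3, and female liver naturals 1 and 3. Values are given as CPM, a count scaled to a common library total, with TMM factors (trimmed mean of M-values) within the table of each tissue and age, and floors cover counting error only. Contrasts between tissues or ages use 1 scaling over both tables, so that a fitted fold change can differ from the ratio of the CPM levels. Hepatocyte markers summed to at least 61440 CPM in each liver library and spermatid markers to at least 9931 CPM in each adult natural testis. Spermatid markers reached 110.6 CPM in 1 natural male liver, against 3.51 CPM at most in IVF male livers. In bulk tissue, fewer cells of a type and less RNA per cell cannot be told apart.

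The liver libraries also differed in how level relates to base composition, in opposite ways in the sexes. Each gene's log2 level was first taken relative to its mean over the natural and IVF libraries of that tissue and sex. Over genes, the slope per 10 points of transcript GC content was 0.40 to 0.51 in natural and -0.93 to -0.10 in IVF male livers. In female livers it was -0.67 to -0.23 in natural and 0.19 to 0.61 in IVF. In ovaries it was -0.10 to 0.11 in both groups together. Within a tissue and sex, slopes of both signs thus follow in part from this centring. Slopes of different tissues or sexes have no common zero. The members' liver contrasts for IVF against naturals and between the sexes are therefore given as counted and with the GC trend of each library removed. The contrasts of liver with testis and ovary, and the order of the genes within each tissue, are as counted.

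In naturals, the same 28 genes had a different order in each tissue, compared per kilobase of the longest transcript. In adult testis, Fdft1 (squalene synthase, the first step given to sterols alone) led with 76.9 ± 5.26 CPM per kb (SD, n = 5) at 12 weeks, 20.7% of the sum of the 28 genes. Fdps, which makes farnesyl diphosphate, followed with 16.2% and Sqle, the squalene epoxidase, with 11.7%. This order of the first 3 was also found at 39 weeks and in F2 testis, where Fdft1 held 22.4% and 19.5%. At 39 weeks the level of Fdft1 was 78.5 ± 8.65 CPM per kb (SD, n = 4) and that of Fdps 63.4 ± 12.4 CPM per kb, so that these neighbours lay within 2 SD of Fdps of each other. In fetal testis Hmgcs1, the HMG-CoA synthase, led instead, with 153 ± 27.5 CPM per kb (SD, n = 4) or 17.4%.

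In liver the late sterol enzymes stood first. Ebp, a sterol isomerase, held 12.6% of the sum in natural male liver (115 ± 8.62 CPM per kb, SD, n = 5) and 12.5% in natural female liver (92.2 ± 12.6 CPM per kb, SD, n = 5). Tm7sf2, a sterol reductase, came next in males with 11.3%, and Sc5d, a sterol desaturase, and Hmgcs1 in females with 11.6% and 11.5%. Transcript GC content is 56.5% for Tm7sf2, 42.9% for Sc5d and 43.1% for Hmgcs1. The part of the GC trend in these orders was not tested. The leading levels in each liver lay within 1 SD of the next in order. In natural ovary Fdps held 25.8% (290 ± 112 CPM per kb, SD, n = 4) and Dhcr7, which makes cholesterol from its 7-dehydro precursor, 14.9% (168 ± 69.2 CPM per kb). Fdps in natural 2 was 189 CPM, against 385 to 523 CPM in the other naturals, and Dhcr7 in natural 3 was 748 CPM, against 291 to 440 CPM in the others.

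**Figure D1:**
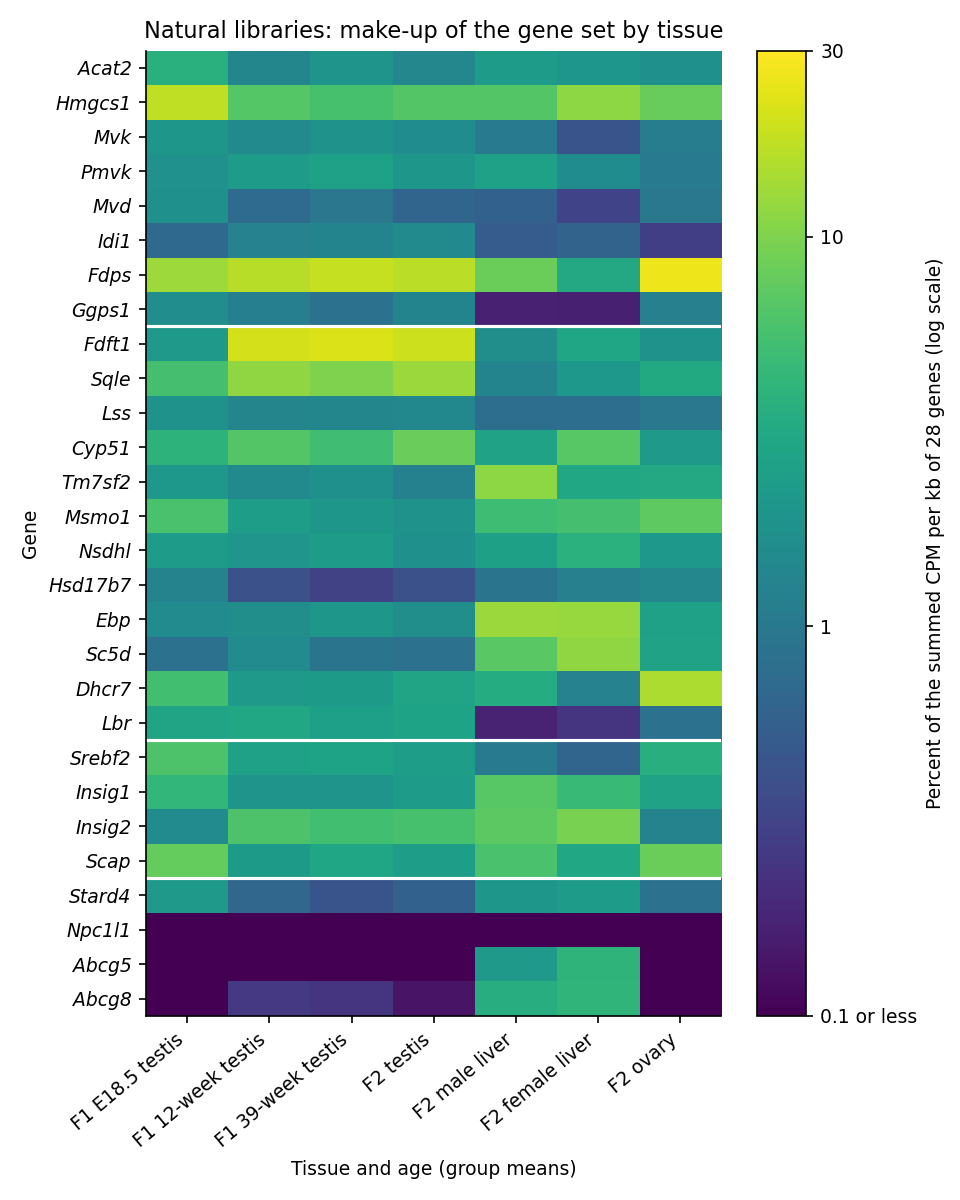
Share of the summed CPM per kb of the 28 genes that each gene held in the natural libraries, by tissue and age (colour, log scale, group means, values of 0.1% or less in the darkest colour). White lines part the mevalonate arm, sterol arm, sterol sensing and sterol transport. Fdft1 holds 19.5% to 22.4% in the 3 adult testis groups and Fdps 25.8% in the ovary.

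The transport genes differed widely between tissues. Abcg5 and Abcg8, whose products together export sterols into bile, were at 40.6 to 51.2 and 105.9 to 125.1 CPM in natural male livers and 49.7 to 96.6 and 75.7 to 173 CPM in natural female livers. In natural ovaries Abcg5 had 0 counts in all 4 libraries together, at least 2360-fold lower than in female liver (floor of 3 counts over the group), and Abcg8 had 14 counts over the 4 libraries. Abcg5 (ENSMUSG00000040505, chr17:84658234-84683011, minus strand) and Abcg8 (ENSMUSG00000024254, chr17:84676302-84700333, plus strand) overlap in GRCm38, and whether reads were counted by strand is not given in the sources used here. Npc1l1, known for sterol uptake in the intestine, was at or near the floor in liver, with 4 counts over all natural male livers and 0 over all natural female livers, and between 0.433 and 0.889 CPM in natural ovaries.

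Between the fetal and the adult natural testis, 19 of 27 tested members changed, and the larger part was higher in the fetus. With edgeR's quasi-likelihood test, 15 were higher at E18.5 and 4 lower (called where the p adjusted by Benjamini-Hochberg was under 0.05 and the levels differed by more than 1.5-fold). Of all genes tested, 77.4% were called in this comparison, 35.7% higher and 41.7% lower, and the median log2 fold change was 0.85 over the members and -0.15 over all genes. The rule on counts left out Abcg5, which had 14 counts over the 12-week naturals. The ages are in separate count tables, so age and any difference in how the tables were made cannot be told apart.

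Hmgcs1 (chr13:119690379-119708260, GRCm38) was at 503, 423, 542 and 652 CPM in the fetal naturals and at 73.2, 89.5, 86.9, 84.9 and 94.3 CPM in the 12-week naturals. Each fetal library lay above each adult library, with a log2 fold change of 1.82 ± 0.11 (SE, adjusted p = 6.07e-11). Of the other mevalonate genes, Acat2 (acetoacetyl-CoA thiolase, 1.88), Mvd (the decarboxylase that makes isopentenyl diphosphate, 1.68), Ggps1 (geranylgeranyl diphosphate synthase, 0.93) and Mvk (mevalonate kinase, 0.85) were also higher on the log2 scale, while Pmvk (0.10), Idi1 (-0.41) and Fdps (0.12) did not pass. Reads of Acat2 are uncertain, because its neighbour Acat3 is nearly identical.

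Fdft1 (chr14:63145150-63179578) moved the other way. It was at 52.1, 73.9, 76.6 and 75.6 CPM in the fetal naturals and at 266, 268, 281, 294 and 312 CPM in the 12-week naturals, a log2 fold change of -2.84 ± 0.11 (SE, adjusted p = 2.61e-13), and the groups did not overlap. Sqle, the next enzyme, was lower at E18.5, with a log2 fold change of -0.63. Its direction turned without TMM factors (0.14, adjusted p = 0.33), and it missed the fold limit without natural 1 or natural 2 of E18.5 (-0.57 and -0.52). Cyp51, the lanosterol demethylase, did not pass (-0.29 ± 0.25), nor did Ebp (0.32), Sc5d (-0.46) and Lbr (0.35). Of the later sterol enzymes, Hsd17b7 (2.04) and Msmo1 (1.72), which act in the removal of methyl groups from lanosterol, and Dhcr7 (1.72), Lss (0.92), Tm7sf2 (0.91) and Nsdhl (0.64) were higher in the fetus.

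Of the 4 sensing genes, 3 were higher in the fetus and the other lower. Scap differed by 2.26 ± 0.08 (SE), Srebf2 by 1.66 ± 0.09 and Insig1 by 1.63 ± 0.15 on the log2 scale, whereas Insig2 differed by -1.52 ± 0.11. Insig1 and Insig2 thus changed in opposite directions. The sterol carrier Stard4 was higher (2.18 ± 0.12), Abcg8 lower on few counts (-2.57 ± 0.40), and Npc1l1 did not pass (0.49). Spermatid markers, Prm1 and Prm2 among them, summed to 2.25 to 5.66 CPM in the fetal naturals and to 12660 to 14690 CPM in the 12-week naturals, while hepatocyte markers summed to 1.33 to 426.7 CPM in the fetal and 1.92 to 3.26 CPM in the 12-week naturals. Their part in these differences was not tested. Leaving out natural 3 or 4 of E18.5 took Tm7sf2 below the threshold, and leaving out natural 4 did so for Nsdhl. Total counts without TMM factors gave 20 members higher and 3 lower, with a median over all genes of 0.60 in place of -0.15.

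**Figure D2:**
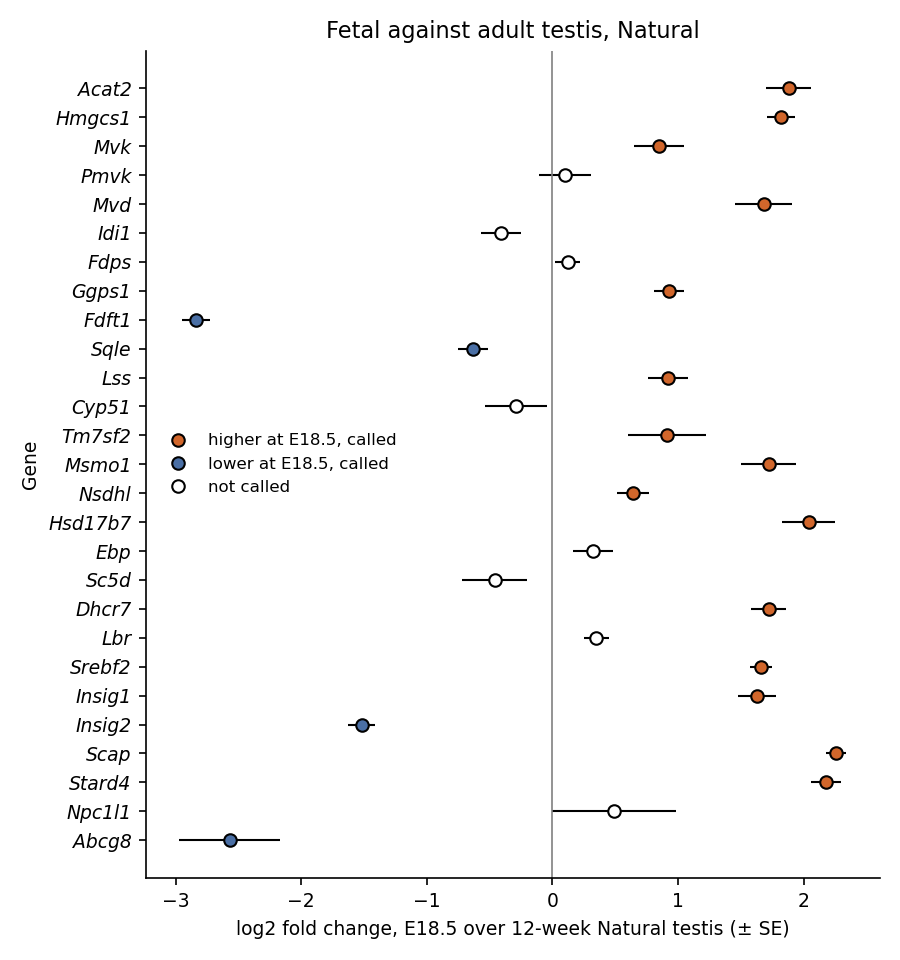
Log2 fold change of 27 members between natural testes of E18.5 (n = 4) and 12 weeks (n = 5), with its standard error. Orange points are members called higher in the fetus (15), blue points those called lower (4) and open points those not called. Fdft1 lies at -2.84 while Scap lies at 2.26.

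From 12 to 39 weeks no member of 27 tested was called, where 0.00499% of all genes were. At an unadjusted p under 0.05 there were 9 members, against 14.4% of all genes, and the DESeq2 Wald test also called 0. The largest of the differences was -0.85 ± 0.36 for Sc5d (SE, adjusted p = 0.314).

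Against natural male liver, natural F2 testis was lower for 23 of the 28 members and higher for 5, in a comparison in which 86.7% of all genes were called, 55.4% higher and 31.3% lower. The members higher in testis were Ggps1 (0.66), Fdft1 (1.24), Sqle (0.96), Lbr, a nuclear membrane protein that is also a sterol reductase (1.68), and Npc1l1 on the log2 scale. The value of Npc1l1 (3.42) rests on 4 liver counts, all in natural 4, and was 6.89 without that library. The deepest differences among the enzymes were those of Tm7sf2 (-5.50 ± 0.17, SE), Sc5d (-5.35 ± 0.12) and Ebp (-5.22 ± 0.10), which act late in the sterol arm. The median over the members was -2.60 and over all genes 1.25. Cyp51 was no longer called without natural 1 or natural 4 of male liver (-0.55 and -0.53). Without TMM factors the split was 5 higher and 18 lower, with a median of 2.11 over all genes. With the IVF libraries of both tissues it was 7 higher and 16 lower.

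Natural ovary against natural female liver gave 23 called of 27 tested, 6 higher and 17 lower, where 72.1% of all genes were called, 42.6% higher and 29.5% lower. Dhcr7 (2.60 ± 0.28, SE), Fdps (2.08 ± 0.32), Ggps1 (1.81 ± 0.23) and Srebf2 (1.52 ± 0.25) were higher in ovary, together with Lbr and Mvd. Ebp (-3.22 ± 0.17), Sc5d (-3.05 ± 0.18), Insig2 (-3.83 ± 0.31) and Cyp51 (-2.55 ± 0.38) were among those lower. This split depended on the scaling and on the libraries: without TMM factors it was 14 higher and 7 lower, with the median of all genes at 2.15 in place of 0.40, and with the IVF libraries of both tissues 14 higher and 9 lower. For Hmgcs1, Sqle, Lss and Msmo1 among others the direction turned in both. Mvd, Lss and Hsd17b7 also lost the call without single libraries, which were naturals 4 and 5 of liver and 1, 3 and 4 of ovary for Mvd, naturals 1 and 3 of liver and 2 and 3 of ovary for Lss, and naturals 3 and 4 of liver and 1 and 2 of ovary for Hsd17b7.

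In F2 ovaries, the enzymes of cholesterol synthesis were at higher values in the daughters of IVF-conceived males, though no member passed the adjusted threshold of edgeR's test. The CPM of the 20 enzymes summed to 2390, 1640, 2532 and 2419 in naturals (2245 ± 408 SD, n = 4) and to 3928, 4539, 4304, 4035 and 4787 in IVF ovaries (4319 ± 354 SD, n = 5). The lowest IVF ovary thus lay above the highest natural. The sum is a description and carries no test.

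**Figure D3:**
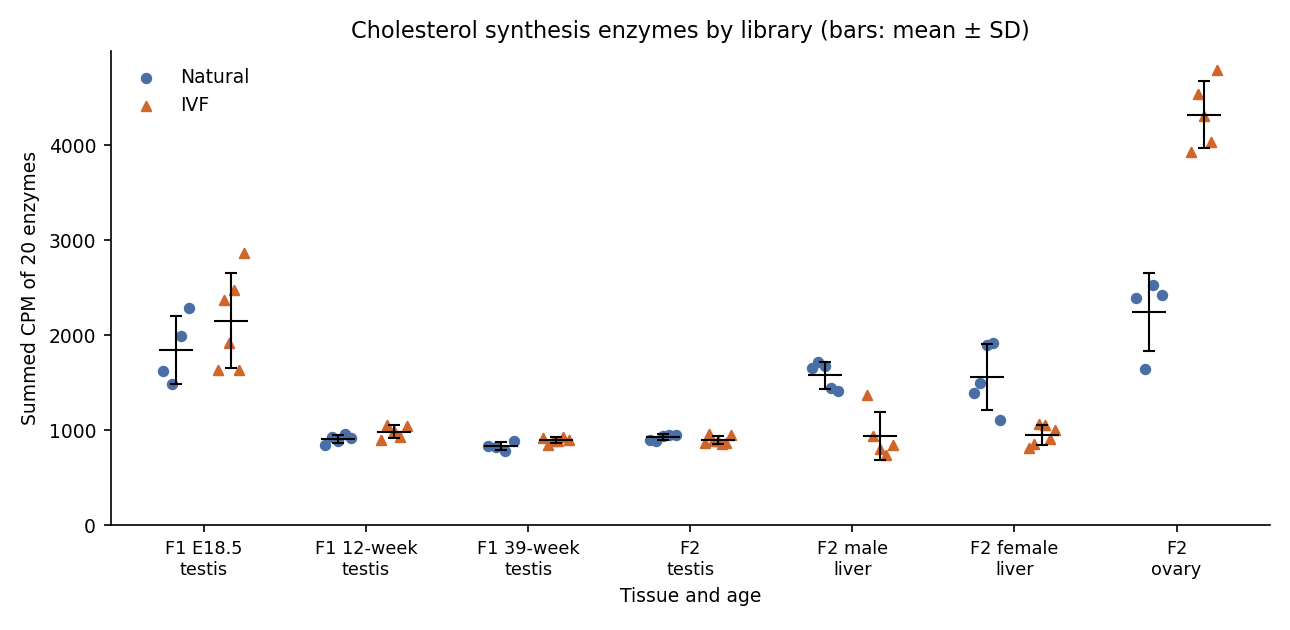
Summed CPM of the 20 cholesterol synthesis enzymes in each library, by tissue and age, for naturals (circles) and IVF (triangles), with mean and SD of each group. The ovary groups do not overlap (1640 to 2532 against 3928 to 4787), both livers lie lower in IVF, and the 3 adult testis groups lie between 786.9 and 1054.

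By edgeR's quasi-likelihood test 0 of 25 tested members were called in ovary, and 0 of all 16502 genes tested (0%). At an unadjusted p under 0.05 there were 19 of the 25, against 10.6% of all genes. Of the 25, 23 were at higher values in IVF ovaries, with a median log2 fold change of 0.56 against -0.01 over all genes. In 10 members, the lowest IVF ovary was above the highest natural, where the groups did not overlap for 3.64% of all genes. The DESeq2 Wald test, fitted on the same counts, called 10 members, all higher, where it called 0.229% of all genes higher. These were Acat2, Hmgcs1, Mvd, Idi1, Sqle, Lss, Cyp51, Msmo1, Nsdhl and Dhcr7.

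Lss (chr10:76531588-76557138), the lanosterol synthase that closes the rings, had the smallest adjusted p of all genes tested. It was at 61.5, 43.3, 48.5 and 52.3 CPM in naturals and at 83.7, 105, 95.5, 88.7 and 97.1 CPM in IVF ovaries, which did not overlap. Its log2 fold change was 0.87 ± 0.11 (SE, n = 4 and 5, edgeR adjusted p = 0.0577), and over leaving out each ovary in turn it passed without natural 1 (0.97, adjusted p = 0.0354). Sqle, which precedes it, was at 105, 80.3, 96.1 and 114 CPM in naturals and at 213, 225, 198, 139 and 170 CPM in IVF ovaries. Again each IVF ovary was above each natural, with a log2 fold change of 0.93 ± 0.15 (SE, adjusted p = 0.186).

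At the head of the mevalonate arm, Hmgcs1 was at 312, 279.6, 303 and 337 CPM in naturals and 568, 767, 405, 772 and 494 CPM in IVF ovaries. The naturals were close together and the IVF ovaries spread, without overlap, with a log2 fold change of 0.96 ± 0.18 (SE, adjusted p = 0.229). Acat2, the thiolase before it, was at 41.8, 34.5, 46.4 and 56.5 CPM in naturals and 76.6, 87.2, 102, 80.2 and 78.5 CPM in IVF ovaries (0.92 ± 0.14, adjusted p = 0.186). Idi1, which isomerizes isopentenyl diphosphate, was low in level, at 13.8, 7.21, 8.01 and 10.1 CPM in naturals and 24.6, 30.8, 20.02, 16.8 and 16.1 CPM in IVF ovaries. It too did not overlap, with a log2 fold change of 1.14 ± 0.24 (SE, adjusted p = 0.266).

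Of the enzymes that trim lanosterol, Cyp51 was at 109.6, 85.4, 79.9 and 117 CPM in naturals and 237, 296, 234, 139 and 165 CPM in IVF ovaries (1.13 ± 0.22, adjusted p = 0.253). Msmo1, the methylsterol monooxygenase, was at 180.5, 135, 158 and 201 CPM in naturals and 375, 431, 375, 189.6 and 321 CPM in IVF ovaries. In this gene IVF 4 lay below natural 4, so the groups overlapped (1.00 ± 0.22, adjusted p = 0.278). Dhcr7 was at 411, 291, 748 and 440 CPM in naturals and 1175, 1017, 1142, 759 and 1011 CPM in IVF ovaries (1.11 ± 0.25, adjusted p = 0.296). Natural 3 was close to IVF 4, and the groups did not overlap. Mvd (0.99 ± 0.27), Nsdhl (0.81 ± 0.21), Fdps (0.76 ± 0.32), Mvk (0.51 ± 0.15), Fdft1 (0.50 ± 0.09), Pmvk (0.47 ± 0.12) and Sc5d (0.46 ± 0.15) were at an unadjusted p under 0.05, and Tm7sf2 (0.56 ± 0.35) and Ebp (0.30 ± 0.18) were not.

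Hsd17b7 (chr1:169949535-169969241) had the largest fitted difference of the members in ovary and the largest standard error. The enzyme reduces a sterol ketone in cholesterol synthesis and is also known to make estradiol from estrone in the corpus luteum. It was at 74.3, 43.0, 83.8 and 90.4 CPM in naturals and at 72.6, 103, 159, 748 and 770.3 CPM in IVF ovaries. IVF 4 and IVF 5 stood far above the rest, while IVF 1 lay within the naturals, and the log2 fold change was 2.35 ± 0.80 (SE, adjusted p = 0.42). Among IVF ovaries, Cyp51, Sqle and Idi1 were lowest in these same 2. Other enzymes went the other way, with Hmgcs1 (772 CPM) and Mvd (63.0 CPM) highest in IVF 4 and Fdps (964 CPM) and Sc5d (232.5 CPM) highest in IVF 5.

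The sensing genes were at smaller differences. Srebf2 was at 0.30 ± 0.13, Insig1 at 0.30 ± 0.12, Scap at 0.34 ± 0.17 and Insig2 at 0.04 ± 0.12 (SE). The carrier Stard4 was at 52.8, 36.6, 49.8 and 58.6 CPM in naturals and 71.9, 79.7, 62.9, 60.3 and 74.9 CPM in IVF ovaries, which did not overlap (0.50 ± 0.13, adjusted p = 0.34). The 2 members at lower fitted values were Ggps1 (-0.11 ± 0.11), whose product leaves the cholesterol route, and Lbr (-0.16 ± 0.11). Median log2 fold changes were 0.84 in the mevalonate arm, 0.84 in the sterol arm and 0.30 in the sensing genes.

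**Figure D4:**
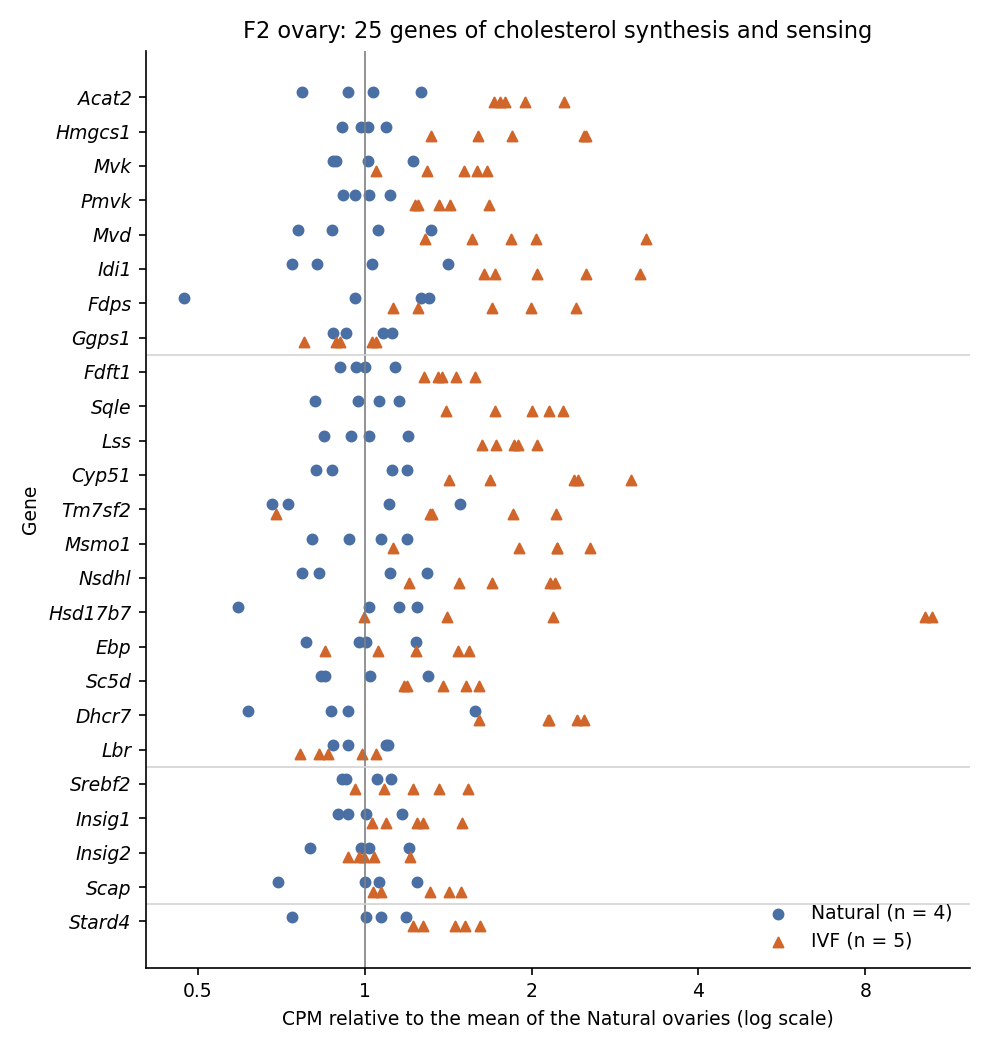
CPM of 25 members in each F2 ovary relative to the mean of the natural ovaries (log scale), with naturals as circles (n = 4) and IVF as triangles (n = 5); grey lines part the arms and transport. Lss lies at 83.7 to 105 CPM in IVF against 43.3 to 61.5 CPM in naturals, and Hsd17b7 reaches 748 and 770 CPM in 2 IVF ovaries.

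Markers of luteal cells were also at higher sums in IVF ovaries, by a narrow gap between the groups (25320 against 24980 CPM). The 6 luteal markers (Lhcgr, Star, Cyp11a1, Ptgfr, Prlr and Hsd3b1) summed to 21000, 13150, 24980 and 19350 CPM in naturals and to 33210, 25420, 34370, 25880 and 25320 CPM in IVF ovaries, so the lowest IVF ovary lay above the highest natural. All 6 were detected in each ovary. Natural 2, which was lowest in the luteal sum, was also lowest in the enzyme sum. Among IVF ovaries the orders differed. IVF 5 had the highest enzyme sum (4787 CPM) and the lowest luteal sum. IVF 1 had the lowest enzyme sum (3928 CPM) and a luteal sum of 33210 CPM. This order of the enzyme sums among IVF ovaries depends on Hsd17b7, which was at 72.6 CPM in IVF 1 and at 748 and 770.3 CPM in IVF 4 and IVF 5. The Leydig cell list, which shares 4 genes with the luteal list, summed to 11850 to 22380 CPM in naturals and 22490 to 31250 CPM in IVF ovaries. Granulosa markers summed to 1914 to 2875 CPM in naturals and 1808 to 2538 CPM in IVF ovaries, and oocyte markers to 276 to 327 and 184 to 280 CPM. Their part in the result was not tested.

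The members share a promoter feature that the choice of genes did not use. RefSeq promoter windows of GRCm38.p6, 250 bases before to 50 after each start, were at hand for 24 of the 28 members in 31 windows, and those of Fdps, Fdft1, Sqle and Stard4 were not used here. The NF-Y box CCAAT, read on both strands, was in at least 1 window of 22 of the 24 genes (91.7%) against 41.1% of all 27025 genes of the table. Acat2 and Scap were without it. Of the genes with several windows, Pmvk, Dhcr7, Insig2 and Abcg8 did not hold it in every window. The windows of Abcg5 and Abcg8 overlap and share a box. All 10 sterol arm genes with a window held it. The core of the sterol regulatory element, searched as TCACNCCAC on both strands, was in the Hmgcs1 window alone, 137 bases before the start, and in 1.44% of all genes. The matches of the 2 motifs did not overlap there, and a match is a description of the letters, not a bound site.

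The stretches of 180 bases that end at the base before the start of 5 members are printed to show these layouts, with 1 to 3 boxes and, in Hmgcs1, the element core. They are read on the coding strand of each gene, and capitals mark CCAAT or its reverse complement ATTGG and, in Hmgcs1, the 9 bases that match the element core. The positions are chr13:119690171-119690350 (plus strand), chr13:8885426-8885605 (plus), chr5:4104698-4104877 (minus), chr8:64733579-64733758 (minus) and chr1:169969206-169969385 (minus), in GRCm38.
Hmgcs1: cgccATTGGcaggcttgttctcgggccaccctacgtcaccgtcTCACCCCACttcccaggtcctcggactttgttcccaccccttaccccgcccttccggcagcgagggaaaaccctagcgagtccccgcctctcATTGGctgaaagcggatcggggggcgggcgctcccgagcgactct
Idi1: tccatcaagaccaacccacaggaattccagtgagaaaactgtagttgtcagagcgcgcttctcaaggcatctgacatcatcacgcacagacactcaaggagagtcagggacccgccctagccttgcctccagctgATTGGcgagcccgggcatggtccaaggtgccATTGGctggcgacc
Cyp51: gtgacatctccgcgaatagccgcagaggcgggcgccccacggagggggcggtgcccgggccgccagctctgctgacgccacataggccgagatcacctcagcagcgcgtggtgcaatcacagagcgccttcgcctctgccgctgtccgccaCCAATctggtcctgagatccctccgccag
Msmo1: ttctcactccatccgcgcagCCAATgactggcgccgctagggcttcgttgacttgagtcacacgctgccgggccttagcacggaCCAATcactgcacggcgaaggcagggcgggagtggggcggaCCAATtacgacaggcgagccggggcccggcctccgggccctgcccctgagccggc
Hsd17b7: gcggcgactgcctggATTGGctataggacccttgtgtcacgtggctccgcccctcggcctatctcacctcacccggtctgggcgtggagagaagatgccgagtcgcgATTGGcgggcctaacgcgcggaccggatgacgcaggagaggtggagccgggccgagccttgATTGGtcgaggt
Msmo1 and Hsd17b7 each held 3 boxes in this stretch, Hmgcs1 and Idi1 2, and Cyp51 1. The remaining matches of Hmgcs1 lie outside the stretch, 237 bases before and 11 bases into the gene.

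In F2 male livers, 15 of 27 tested members were lower in IVF and 0 higher as counted. Of all genes tested 31.1% were called and 17.2% were called lower, and the median log2 fold change was -0.67 over the members and -0.01 over all genes. The 20 enzymes summed to 1650, 1718, 1677, 1443 and 1408 CPM in naturals and 1373, 941, 803, 741 and 842 CPM in IVF livers, without overlap. In 11 members the groups did not overlap, as in 27% of all genes. By arm, 6 of 8 mevalonate genes, 5 of 12 sterol genes, 3 of 4 sensing genes and 1 of 3 tested transport genes were lower.

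Tm7sf2 (chr19:6062821-6068373) had the largest of these differences. It was at 176, 159, 141, 128 and 164 CPM in naturals and 50.6, 16.2, 53.0, 26.2 and 31.9 CPM in IVF livers, and each IVF liver was below each natural. The log2 fold change was -2.16 ± 0.25 (SE, n = 5 and 5, edgeR adjusted p = 6.81e-05), and with the GC trend removed -1.37 (adjusted p = 0.0109). Fdps was at 109, 118, 109, 95.8 and 96.1 CPM in naturals and 51.6, 18.7, 4.82, 28.1 and 19.99 CPM in IVF livers (-1.92 ± 0.30, adjusted p = 0.00035). Here too the groups lay apart, and the value with the trend removed was -1.42 (adjusted p = 0.00265).

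Srebf2, the transcription factor of the pathway, was at 50.4, 51.9, 56.0, 48.5 and 41.2 CPM in naturals and 18.6, 12.4, 19.3, 21.5 and 14.9 CPM in IVF livers (-1.50 ± 0.18, adjusted p = 6.81e-05). The naturals stood above all IVF livers, but with the trend removed the difference was -0.68 (adjusted p = 0.0326). Scap was at 201, 246, 253, 216 and 213 CPM in naturals and 146, 70.9, 53.0, 111 and 100.1 CPM in IVF livers (-1.19 ± 0.22, adjusted p = 0.000738). It lost its call with the trend removed (-0.17, adjusted p = 0.529). Insig1, whose product holds Scap back, was at 178, 179.8, 164, 153 and 156 CPM in naturals and 93.4, 121, 53.0, 48.9 and 63.4 CPM in IVF livers (-1.12 ± 0.22, adjusted p = 0.00132). With the trend removed it was close to that value (-1.15, adjusted p = 0.00312), while Insig2 was at -0.02 ± 0.20 as counted.

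Hmgcs1 was at 231, 253, 237, 161 and 134 CPM in naturals and 149, 93.3, 169, 74.9 and 61.0 CPM in IVF livers. IVF 1 and IVF 3 lay among the naturals, and the difference was -0.93 ± 0.27 (SE, adjusted p = 0.0148) as counted and -1.24 with the trend removed. Sqle was at 42.7, 37.3, 33.1, 27.4 and 24.9 CPM in naturals and 22.8, 13.1, 12.1, 10.3 and 2.78 CPM in IVF livers (-1.42 ± 0.39, adjusted p = 0.0136). Dhcr7 was at 102, 98.3, 92.0, 72.5 and 70.0 CPM in naturals and 39.3, 16.2, 28.9, 32.9 and 21.0 CPM in IVF livers, a log2 fold change of -1.62 ± 0.22 (SE, adjusted p = 0.000129).

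The remaining members lower in IVF male livers were Acat2 (-0.67), Mvk (-1.34), Pmvk (-1.21), Mvd (-1.89), Lss (-0.67), Msmo1 (-1.04) and Stard4 (-0.67) on the log2 scale. Fdft1 (-0.17 ± 0.15), Cyp51 (-0.18 ± 0.21), Ebp (-0.36 ± 0.18) and Sc5d (-0.25 ± 0.21) were not called, nor were Abcg5 (0.16 ± 0.17) and Abcg8 (-0.10 ± 0.19). Lss was no longer called without natural 1, 2, 3 or 4 or IVF 4 or 5, and Acat2 and Stard4 not without IVF 4. IVF 3, with 543745 counts, had 0 counts of Pmvk, Ggps1 and Lbr, and without the 2 libraries under 5000000 counts 12 members were called, all lower. Those lost were Pmvk (-1.04, adjusted p = 0.0545), Sqle (-1.42, adjusted p = 0.0824) and Lss (-0.66, adjusted p = 0.0543). Without IVF 1, Pmvk was at -1.83 and Sqle at -2.01.

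With the GC trend of each library removed, 12 members were lower in IVF male livers and 0 higher, where 5.11% of all genes were lower. The median was -0.63 over the members and 0.06 over all genes. Of the 15 called as counted, 10 remained, which were Acat2, Hmgcs1, Fdps, Sqle, Tm7sf2, Msmo1, Dhcr7, Srebf2, Insig1 and Stard4. Mvk, Pmvk, Mvd, Lss and Scap did not remain, and Idi1 (-1.14) and Hsd17b7 (-0.83) passed with the trend removed alone.

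In F2 female livers, 12 of 27 tested members were called, 8 lower in IVF and 4 higher, where 39.4% of all genes were called, 17.8% lower and 21.6% higher. Lower were Hmgcs1, Idi1, Fdft1, Sqle, Cyp51, Msmo1, Nsdhl and Sc5d, and higher were Mvk, Tm7sf2, Srebf2 and Scap. The 20 enzymes summed to 1395, 1496, 1897, 1920 and 1109 CPM in naturals and to 813 to 1069 CPM (median 955) in IVF livers. In 5 members the groups did not overlap (Scap, higher in IVF, and Idi1, Cyp51, Sc5d and Nsdhl, lower), as in 29.4% of all genes. Without TMM factors 6 were higher and 5 lower, with the median of all genes at 0.31.

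Cyp51 was at 133, 138, 312, 312 and 83.5 CPM in naturals and from 27.1 to 74.2 (median 40.6) CPM in IVF livers. The naturals were spread, but each was above each IVF liver, with a log2 fold change of -2.11 ± 0.38 (SE, n = 5 and 6, edgeR adjusted p = 0.000741) as counted and -1.79 (adjusted p = 0.00622) with the GC trend removed. Nsdhl, a dehydrogenase that acts in the removal of methyl groups, was at 54.9, 37.3, 101, 75.4 and 37.8 CPM in naturals and from 8.27 to 22.5 (median 15.5) CPM in IVF livers (-1.97 ± 0.29, adjusted p = 0.000136). With the trend removed it was -1.59 (adjusted p = 0.00206).

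Idi1 was at 14.6, 11.3, 15.8, 18.3 and 9.24 CPM in naturals and from 2.22 to 5.69 (median 4.34) CPM in IVF livers (-1.70 ± 0.25, adjusted p = 7.14e-05). Hmgcs1 was at 319, 309.7, 338, 344 and 149.7 CPM in naturals and from 78.4 to 176 (median 107) CPM in IVF livers, and natural 5 alone fell among the IVF livers (-1.28 ± 0.25, adjusted p = 0.000707). Both kept their call with the trend removed (-1.07 and -0.74). Sc5d was at 405, 339, 451, 438 and 404 CPM in naturals and from 154 to 225 (median 206) CPM in IVF livers (-1.02 ± 0.13, adjusted p = 3.17e-05). Its groups were far apart, but with the trend removed it was under the fold limit (-0.43, adjusted p = 0.0242).

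Fdft1 (-0.70 ± 0.18), Sqle (-1.41 ± 0.47) and Msmo1 (-1.13 ± 0.34) were the other members lower in IVF female livers. Sqle was no longer called without natural 2, 3 or 4 or IVF 1, 2, 5 or 6 (adjusted p from 0.0504 to 0.0733), and Msmo1 not without natural 2. Natural 5 was below the other naturals in both, at 10.9 CPM of Sqle and 39.6 CPM of Msmo1. The 15 members that were not called lay between -0.50 (Stard4, adjusted p = 0.0284, under the fold limit) and 0.50 (Dhcr7, adjusted p = 0.054). Abcg5 (0.22 ± 0.17) and Abcg8 (0.39 ± 0.23) were among them.

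Of the 4 members higher in IVF female livers, Scap was at 67.7, 142, 75.1, 99.5 and 86.4 CPM in naturals and from 152 to 224 (median 208) CPM in IVF livers (1.05 ± 0.18, adjusted p = 0.000249), without overlap. Srebf2 was at 18.3, 41.3, 21.5, 24.1 and 14.7 CPM in naturals and from 39.7 to 67.5 (median 44.3) CPM in IVF livers (1.01 ± 0.24, adjusted p = 0.00252). Tm7sf2 was at 23.2, 38.9, 34.2, 49.0 and 19.7 CPM in naturals and from 29.7 to 106 (median 90.6) CPM in IVF livers (1.35 ± 0.32, adjusted p = 0.00359), and Mvk differed by 0.97 ± 0.28 (adjusted p = 0.01). None of the 4 remained called with the GC trend removed, where they were at 0.08, 0.17, 0.57 and -0.02.

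With the GC trend removed, 7 members were lower in IVF female livers and 0 higher, where 9.87% of all genes were lower and 7.64% higher, and the median was -0.03 over the members and 0.01 over all genes. Hmgcs1, Idi1, Fdft1, Cyp51 and Nsdhl were among the 8 called as counted, and Mvd (-0.86) and Lss (-0.70) were added. For Mvd the direction turned, from 0.12 as counted. Lower in both sexes were Hmgcs1, Sqle and Msmo1 as counted, 20% of the 15 in males and 37.5% of the 8 in females. With the trend removed they were Hmgcs1 and Idi1, 16.7% of 12 and 28.6% of 7. The share of all genes lower in both sexes was not computed, so the overlap of the members is a description only.

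**Figure D5:**
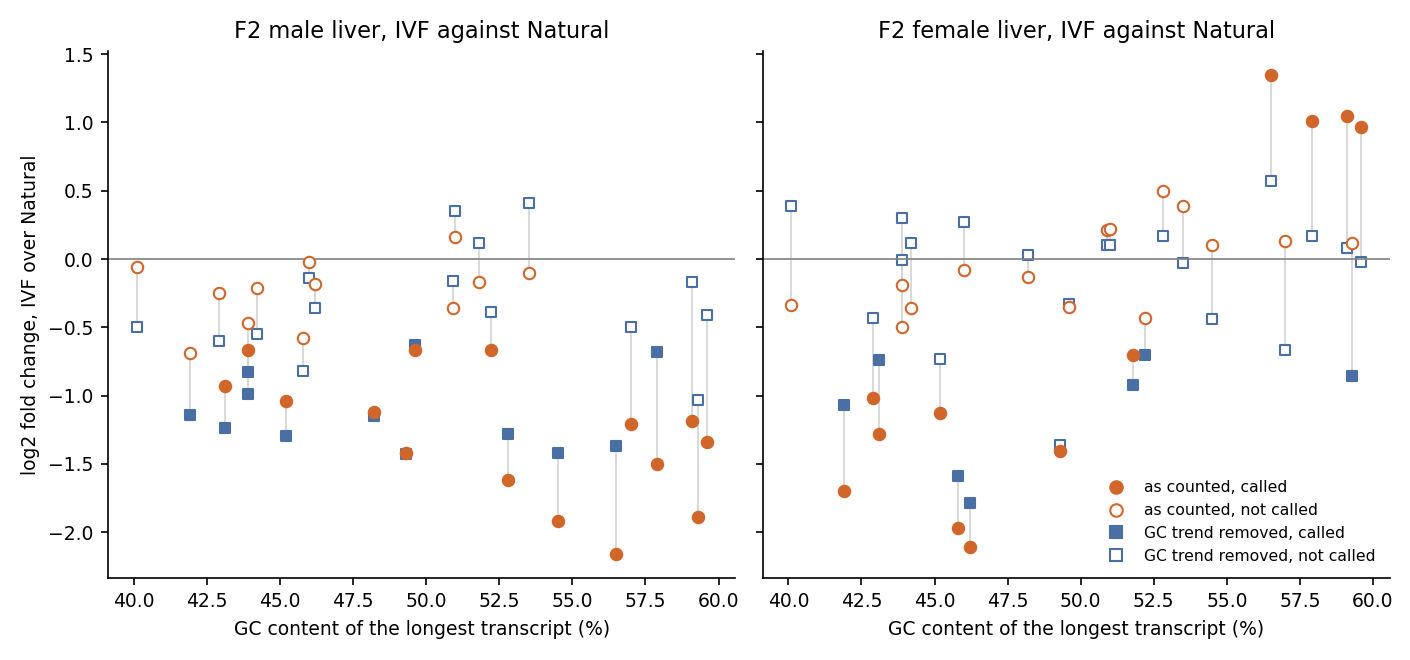
Log2 fold change of IVF over natural for 27 members against the GC content of the longest transcript (%), in F2 male and F2 female livers, as counted (circles) and with the GC trend of each library removed (squares), with filled symbols for called members. As counted, members over 50% GC have medians of -1.21 in males and 0.22 in females, and members up to 50% GC medians of -0.62 and -0.76.

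The liver differences of the members followed GC content as counted. Over 27 members, which share libraries, Spearman's rho between GC content and log2 fold change was -0.53 in males and 0.73 in females, given as a description. In the 13 members over 50% GC the median log2 fold change was -1.21 in males and 0.22 in females, and in the other 14 it was -0.62 and -0.76. The 6 hepatocyte markers (Alb, Ttr, Tat, Fgb, Cyp2e1 and Serpina1a), all detected in liver, also lay in opposite order in the sexes. They summed to 61440 to 87130 CPM in natural and 88250 to 136200 CPM in IVF male livers, and to 163600 to 234100 CPM in natural and 100200 to 119200 CPM in IVF female livers. The part of these markers in the results was not tested.

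The difference between IVF and natural itself differed between female and male livers for 13 of 27 members as counted, where 54% of all genes passed this interaction test at an adjusted p under 0.05. It was higher in females than in males for 10 members, against 28.1% of all genes, and lower for 3, against 25.9%. Tm7sf2 stood out most (3.51 ± 0.44, SE, adjusted p = 7.94e-07), being lower in IVF males and higher in IVF females. Srebf2 (2.52 ± 0.31, adjusted p = 2.1e-07), Scap (2.24 ± 0.29, adjusted p = 5.32e-07) and Mvk (2.32 ± 0.37, adjusted p = 8.6e-06) had the same pattern. Cyp51 (-1.92 ± 0.46, adjusted p = 0.00129) and Nsdhl (-1.38 ± 0.47, adjusted p = 0.0168) lay the other way, with the IVF difference lower in females than in males.

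With the GC trend removed, 7 members passed the interaction test, 5 higher and 2 lower, where 36% of all genes passed, 13.2% higher and 22.8% lower. Of the 13 as counted, 4 remained: Cyp51 (-1.51), Tm7sf2 (1.85), Dhcr7 (1.35) and Insig1 (1.10). Spearman's rho of the interaction with GC content over the members was 0.80 as counted. Nsdhl and Sc5d were no longer called without IVF 1 of male liver, where Pmvk moved from 1.35 to 1.98. Without the libraries under 5000000 counts, Pmvk (1.11, adjusted p = 0.0752), Nsdhl (-1.06, adjusted p = 0.108) and Ebp (0.34, adjusted p = 0.158) did not pass. In natural livers alone, females were higher than males for Cyp51 (1.08) and Abcg5 (0.69) and lower for 9 members, Tm7sf2 (-2.18), Dhcr7 (-1.68) and Fdps (-1.67) at the head, where 45% of all genes were called, 21.1% higher and 23.9% lower. With the GC trend removed, 2 members were higher in females and 6 lower, where 15.5% of all genes were higher and 12.2% lower. Cyp51 (0.75, adjusted p = 0.13), Mvd (-0.15), Mvk (-0.48), Pmvk (-0.20), Scap (-0.21) and Srebf2 (-0.12) were then not called, and Fdft1 (0.73), Ggps1 (-0.90) and Idi1 (-0.65) were. Without TMM factors these were 0 higher and 12 lower, with a median of -0.37 over all genes, and with IVF livers in place of naturals 5 higher and 3 lower. Abcg5 was no longer called without natural 2 of female liver (0.53). The sexes are in separate count tables, so sex and any difference in how the tables were made cannot be told apart.

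In testis, none of the 27 tested members was called between IVF and naturals at any age. At E18.5, 0.221% of all genes were called, at 12 weeks 0.199%, at 39 weeks 0.00996% and in F2 testis 0.914%. At an unadjusted p under 0.05 there were 0 members at E18.5, 6 at 12 weeks, 4 at 39 weeks and 5 in F2 testis, against 17.7%, 12.9%, 10.5% and 13.9% of all genes in that order. The DESeq2 Wald test called 0 members at each F1 age and 1, Abcg8, in F2 testis. The 20 enzymes summed to 1490 to 2283 CPM in natural and 1632 to 2862 CPM in IVF fetal testes.

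At 12 weeks, Ebp was at 10.8, 11.7, 10.6, 12.4 and 9.14 CPM in naturals and 12.2, 17.8, 20.1, 11.4 and 17.7 CPM in IVF testes (0.54 ± 0.15, adjusted p = 0.136). The groups overlapped, and Ebp passed the threshold without IVF 1 alone (0.62, adjusted p = 0.0494). Msmo1 was at 14.4, 22.3, 16.5, 18.1 and 19.5 CPM in naturals and 20.8, 29.8, 24.0, 20.4 and 33.0 CPM in IVF testes (0.50 ± 0.14, adjusted p = 0.145). The others at an unadjusted p under 0.05, Acat2, Fdps, Dhcr7 and Nsdhl, had log2 fold changes from 0.27 to 0.52. Leydig cell markers summed to 777 to 1178 CPM in naturals and 809.9 to 1546 CPM in IVF testes at this age, and their part was not tested.

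At 39 weeks Cyp51 had the smallest adjusted p of the members. It was at 75.5, 72.2, 71.9 and 66.8 CPM in naturals and from 88.3 to 97.5 (median 91.5) CPM in IVF testes (0.37 ± 0.10, SE, adjusted p = 0.221). Hmgcs1 (0.33), Ggps1 (0.43) and Scap (-0.34) were the others at an unadjusted p under 0.05. In F2 testis Cyp51 lay the other way, at 123, 121, 106, 127 and 124 CPM in naturals and from 82.3 to 116 (median 94.1) CPM in IVF testes. Its adjusted p there was 0.0362, with a log2 fold change of -0.33 ± 0.08 (SE, n = 5 and 7) that is under the fold limit. Whether the F1 and F2 differences in Cyp51 differ from each other was not tested. Acat2 (-0.41), Fdps (-0.22) and Idi1 (-0.19) were also at an unadjusted p under 0.05. Abcg8, on few counts, was at 1.88, 0.885, 1.96, 2.66 and 1.95 CPM in natural and from 2.59 to 4.55 (median 3.00) CPM in IVF F2 testes (adjusted p = 0.0636), and passed without natural 4 (0.99, adjusted p = 0.0361).

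Beyond the members, 28 other genes of the pathway were listed by role in the isoprenoid branch, in regulation and in sterol handling. Between IVF and naturals 0 of 28 were called in ovary and 0 of 27 tested in each of the 4 testis comparisons. In these comparisons 0.914% of all genes were called at most. As counted, in male livers 1 was higher and 5 lower of 28, where 31.1% of all genes were called and 17.2% were lower. Stard3 (-1.27) and Rabggta (-0.89) were among the lower and Pggt1b (0.89) was higher. Stard5 (-0.59), also lower in IVF male livers, and the 2 lower in IVF female livers, Pggt1b (-0.70) and Mbtps2 (-0.85), are named after their values were seen. In female livers 8 were higher and 2 lower of 28, where 39.4% of all genes were called, 21.6% higher and 17.8% lower. Stard3 (1.86), Rabggta (1.5) and Gramd1a (1.26) were among the higher. The interaction was called for 16 of these 28 genes, 10 higher and 6 lower in females than in males, where 54% of all genes passed. With the GC trend of each library removed, 0 of the 28 were called in male livers, where 5.11% of all genes were lower. In female livers 2 were then higher, Stard3 (1.04) and Rabggta (0.92), and 0 lower, where 7.64% of all genes were higher and 9.87% lower. The interaction passed for 7 with the trend removed, 6 higher and 1 lower, with Stard3 at 1.48. Of all genes 36% then passed, 13.2% higher and 22.8% lower. Between tissues, natural ovary was above natural female liver in Soat1, which stores cholesterol as esters (5.99), and in Gramd1b (6.03), and below it in Lipa, which frees cholesterol in lysosomes (-3.78). Of the 28, 27 were tested between fetal and 12-week testis, with 10 higher and 9 lower at E18.5. Of all genes 77.4% were called there, 35.7% higher and 41.7% lower. Tmem97 (-4.80), Gramd1c (-4.63) and Rnf139 (-4.08) were at the lower end.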

How the data were processed

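RNA from F1 testes and F2 testes, livers and ovaries was sequenced after a stranded mRNA preparation, 1 library per sample. Per the labels and the submitters' processing notes, reads were trimmed with Trimmomatic 0.32, aligned to mm10 (GRCm38) with STAR 2.3.0e and counted per gene with featureCounts 1.5.0. The authors deposited raw counts, 1 table per tissue and age, and DESeq2 is named for their own tests. Strand and multimapping settings of the counting are not given in the sources used here. Every column was used.

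Libraries were grouped by their titles. Each comparison was fitted on the whole table with edgeR 4.0.16 in R 4.3.3 (filterByExpr, TMM, robust quasi-likelihood test, two-sided), and a gene was called at a Benjamini-Hochberg adjusted p under 0.05 over all genes tested and a change over 1.5-fold. The interaction of sex and conception in livers was called on its adjusted p alone. Log2 CPM levels, from which the GC slopes were taken, used a prior count of 2. The GC trend of each library was removed with a lowess (span 0.4) over genes with a mean count of at least 10, entered as an offset. Transcript length, GC content and positions were those of the longest GENCODE transcript, and promoters those of RefSeq. DESeq2 1.42.0, other filters and scalings, thinning, left-out libraries and a replicate block were alternatives. The scripts were tested on simulated data. All members may be named in every comparison, and of the other pathway genes at most 4 called ones per comparison by smallest adjusted p. Some genes of that list are counted but not reported here by name. The members and lists were chosen with earlier results of these data known. Total counts per library set the precision and are given with the results. In no comparison did same-numbered libraries of 2 groups deviate together in every pair, so the numbers were not treated as pairs. The highest correlation was 0.5, between IVF and naturals at 39 weeks, where 2 of 4 pairs were over 0.1. The labels do not say whether F2 livers and gonads came from the same animals, and the tissue contrasts treat them as separate.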

Additional observations from a re-analysis of the deposited data

Results flagged for a closer look

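Of 382 sets of libraries tested for a sample far from the others of its group by Dixon's criterion, 19 (4.97%) held one, where chance gives about 1 in 20. In ovary it was the enzyme sum of natural 2, 1640 CPM, which was the lowest. In fetal naturals they were Fdft1 in natural 1 (52.09 CPM), Lbr in natural 3 (74.16 CPM) and Insig1 in natural 2 (75.3 CPM). At 12 weeks they were Acat2 in IVF 2 (22.05 CPM), Mvk in natural 2 (11.13 CPM), Cyp51 in natural 4 (142.3 CPM) and Dhcr7 in natural 2 (31.16 CPM), and at 39 weeks Abcg8 in IVF 6 (0.7768 CPM). In F2 testis they were Acat2 in IVF 4 (11.46 CPM), Fdft1 in IVF 7 (373.8 CPM), Dhcr7 in IVF 2 (35.84 CPM) and Insig1 in IVF 1 (17.1 CPM). In male liver they were Fdft1 in natural 3 (64.68 CPM) and Insig2 in IVF 3 (221.8 CPM), the library with the fewest counts. In female liver they were Hmgcs1 in natural 5 (149.7 CPM), Mvk in IVF 1 (4.649 CPM), Tm7sf2 in IVF 2 (29.73 CPM) and Insig1 in natural 2 (141.8 CPM).

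The difference between IVF and natural livers itself differed between the sexes for 13 of 27 members by the interaction test, as counted, where 54% of all genes passed. Female minus male, in log2, it was 2.32 for Mvk, 1.35 for Pmvk, 2.03 for Mvd, 2.01 for Fdps, 3.51 for Tm7sf2, 0.58 for Ebp, 2.12 for Dhcr7, 2.52 for Srebf2, 1.00 for Insig1 and 2.24 for Scap. It was -1.92 for Cyp51, -1.38 for Nsdhl and -0.76 for Sc5d. The liver libraries differ in their GC trend in the same arrangement, and with that trend removed 4 of the 13 remained called, where 36% of all genes passed.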

How the results depend on the processing

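Added after the data were seen were the scaling without TMM factors, the fits without libraries under 5000000 counts, and the GC trend of the contrast between the sexes and of the other pathway genes. The number of members called in male liver was 7 with at least 10 counts required in every library, against 15, and 12 without the libraries under 5000000 counts. With at least 10 counts required, 7 of the 15 were still tested and all 7 kept their call, while the rest were not tested. In female liver it was 7 with the GC trend removed, against 12. The interaction gave 7 with at least 10 counts in every library and 7 with the GC trend removed, against 13. With at least 10 counts required, 7 of the 13 were still tested, of which 6 kept their call and 1 lost it. In ovary, 10 were called by DESeq2 against 0, and 1 each without a filter, with at least 10 counts, after thinning to the total counts of the smallest library and without TMM factors, which was Lss each time (adjusted p from 0.0097 to 0.0479). In F2 testis, 1 was called by DESeq2 (Abcg8), 1 without a filter (Abcg8) and 1 without the fold limit (Cyp51), against 0. Without TMM factors the summed CPM of natural male livers was 1786. Leaving out each library in turn gave 0 to 1 at 12 weeks (1 without IVF 1), 0 to 1 in F2 testis (1 without natural 4), 0 to 1 in ovary (1 without natural 1), 12 to 17 in male liver, 11 to 13 in female liver, 11 to 15 for the interaction, 17 to 20 between fetal and 12-week testis, 27 to 28 between testis and liver, 21 to 24 between ovary and liver and 10 to 14 between the livers of the sexes, and 0 in the testes of E18.5 and 39 weeks.

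Directions turned for these members, and the cause was not tested. With the GC trend removed, Mvk (-0.02) and Mvd (-0.86) turned in female liver, and Pmvk (-0.27) and Sc5d (0.08) in the interaction. Without TMM factors, Sqle (0.14) turned between fetal and 12-week testis, Idi1 (0.09) and Cyp51 (0.18) between testis and liver, and Acat2 (0.63), Hmgcs1 (0.29), Pmvk (0.21), Fdft1 (0.16), Sqle (1.44), Lss (1.15), Tm7sf2 (0.86), Msmo1 (1.21) and Hsd17b7 (1.04) between ovary and liver. With IVF libraries in place of naturals, Mvd (0.21), Idi1 (0.19), Fdps (0.76) and Srebf2 (0.93) turned between testis and liver. Between ovary and liver Acat2 (0.15), Hmgcs1 (0.77), Idi1 (0.81), Sqle (2.03), Lss (0.69), Cyp51 (0.69), Msmo1 (1.59), Nsdhl (0.96) and Hsd17b7 (1.83) did. Between the livers of the sexes Mvk (0.79), Pmvk (0.37), Mvd (0.86), Fdps (0.36), Cyp51 (-0.84), Tm7sf2 (1.33), Nsdhl (-1.08), Dhcr7 (0.44), Srebf2 (1.52), Insig1 (0.22) and Scap (1.03) did.

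The replicate numbers were not treated as pairs, since no comparison had a correlation over 0.1 in every pair. Libraries of the same animal need not deviate together, so this cannot tell whether same-numbered libraries share an animal. A replicate block gave 16 members in male liver, 12 in female liver, 0 in ovary and in the testes, 14 for the interaction, 18 between fetal and 12-week testis, 28 between testis and liver, 23 between ovary and liver and 11 between the sexes. The closest pairs were 39-week naturals 1 and 2, F2 testis naturals 1 and 2 and F2 testis IVF 3 and 4, with chi-square per degree of freedom of 3.23, 4.63 and 3.24. The next lowest values in these groups were 49, 10.4 and 9.25. Male liver IVF 2 and IVF 3, both under 5000000 counts, were at 15.5, against 185 for the next pair of that group, and were not summed. Whether libraries of a pair share an animal was not tested, so a group may hold fewer independent animals than libraries. The closest pairs were kept apart. Summing each pair gave 0 members called between IVF and naturals at 39 weeks and in F2 testis and 0 between 39 and 12 weeks, and 28 between testis and liver, as before. Depth limits the low members most, such as Abcg5, Abcg8 and Npc1l1.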
